A study of Mus musculus with 8 samples.

Results

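A set of 9 textbook markers of B and T lymphocytes was followed in the hearts of Pus1 mutant and wild-type mice: Cd79a, Cd79b and Ms4a1 of B cells, Cd3e, Cd3d, Cd3g, Cd2 and Lck of T cells, and Cd37, a tetraspanin of leukocytes that is most abundant on B cells. They were chosen by name, as 9 of the 20972 genes that the array's accessions named, and took in every probe of those genes, 11 in all. The choice was made with earlier results of these data known. Counts of markers set beside the share over all features are therefore description and not a test. The tissue was a piece of frozen heart with both atrium and ventricle, from 4 homozygous Pus1 mutants (2 females, 2 males) and 4 mice carrying wild-type Pus1 (2 females, 2 males), all 14 to 16 weeks old and backcrossed to C57BL/6J for 5 generations. The labels call the mutant a knockout in the title and do not describe the allele or name a Cre line. On each of 4 two-colour arrays a mutant was hybridised with a wild type of its own sex, females on arrays 1 and 2 and males on arrays 3 and 4, with the mutant in the red dye Cy5 on arrays 1 and 3 and in the green dye Cy3 on arrays 2 and 4. Pus1, the pseudouridine synthase gene that was targeted, had log2 ratios (mutant over wild type) of -2.15, -1.68, -1.69 and -1.88 on arrays 1 to 4.

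B and T lymphocytes sense antigen through receptors that cannot signal by themselves. On B cells the membrane immunoglobulin is carried by CD79A and CD79B, on T cells the T cell receptor by CD3 epsilon, delta and gamma together with the zeta chain, and in both the tails of these partners are phosphorylated when the receptor is engaged. In T cells the kinase LCK makes that first phosphorylation. A healthy mouse heart holds a small population of resident and circulating lymphocytes, B cells more than T cells. In a piece of tissue, fewer lymphocytes and less RNA in each lymphocyte cannot be told apart.

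The receptor partner genes are shown by the 250 bases before their RefSeq start sites (assembly GRCm38.p6, 5′ to 3′ on the gene's strand). Cd79b is missing, since RefSeq gave no window for it. Capitals mark GGAAGT on either strand, the core bound by ETS factors.
Cd79a, chr7:24897247-24897496, plus strand: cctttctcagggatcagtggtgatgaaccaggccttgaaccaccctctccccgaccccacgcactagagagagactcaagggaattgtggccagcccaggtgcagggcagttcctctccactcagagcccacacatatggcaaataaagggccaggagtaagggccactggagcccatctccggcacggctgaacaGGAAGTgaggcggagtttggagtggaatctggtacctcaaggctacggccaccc
Cd3e, chr9:45009612-45009861, minus strand: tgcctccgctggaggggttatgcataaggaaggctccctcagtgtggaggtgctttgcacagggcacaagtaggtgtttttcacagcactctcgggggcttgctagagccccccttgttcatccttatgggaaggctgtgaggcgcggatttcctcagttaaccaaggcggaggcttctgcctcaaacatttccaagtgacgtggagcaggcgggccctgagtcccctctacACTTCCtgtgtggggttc
Cd3d, chr9:44981536-44981785, plus strand: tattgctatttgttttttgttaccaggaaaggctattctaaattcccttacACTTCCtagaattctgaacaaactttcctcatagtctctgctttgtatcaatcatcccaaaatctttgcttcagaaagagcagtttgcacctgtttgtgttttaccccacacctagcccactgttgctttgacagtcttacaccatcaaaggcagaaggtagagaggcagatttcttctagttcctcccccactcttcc
Cd3g, chr9:44980432-44980681, minus strand: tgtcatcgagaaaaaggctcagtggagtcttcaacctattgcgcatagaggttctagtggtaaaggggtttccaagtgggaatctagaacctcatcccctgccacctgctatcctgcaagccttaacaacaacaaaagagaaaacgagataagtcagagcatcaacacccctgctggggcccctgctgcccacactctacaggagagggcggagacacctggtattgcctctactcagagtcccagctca

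The motif begins 54 bases before the start of Cd79a, 18 before that of Cd3e and 199 before that of Cd3d, and was not in the window of Cd3g, which lies next to Cd3d on chromosome 9. The RefSeq table gave windows for 6 of the 9 genes, 7 windows in all since Lck has a window for each of 2 starts, and 6 of the 7 held GGAAGT. Of 32851 windows of this length over all genes, 19.7% held it. The letters CCCNNGGG, the sites bound by the B cell factor EBF1, were in 0 of the 7 windows and in 11.8% of all, and TGTGGT, the core bound by RUNX factors, was in 1 of the 7 (Lck) and in 14.0% of all. Both strands were read, the motifs do not share positions here, and ETS was added after the sequences were seen. A match is a string of letters in a window and no more. Any link between these letters and whether a probe gave signal was not tested.

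Before the values, the tissue itself has to be described. All 7 general and ventricular myocyte markers were well above background in every heart. Markers of atrium, fat and blood differed between the hearts. The mean of 6 atrial myocyte markers, each centred on its own mean log2 level, stood at 3.44 and 2.19 in mutant replicates 2 and 4 and at 2.29 in wild-type replicate 2, against -2.20 to -1.06 in the other hearts. Adipocyte markers were high in the same 3 hearts (2.35 and 0.91 in mutants 2 and 4, 1.70 in wild type 2). Erythroid genes were high in mutant replicate 1 (1.96) and wild-type replicate 2 (1.69), and platelet genes in mutant 2 (0.85) and wild type 2 (1.02). The share of probes well above background ran from 44.7% to 54.6% in the mutants and from 46.3% to 53.8% in wild type.

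Whether a probe gave signal was read from the scanner software's call of a spot being well above background. Cd79b, Cd3e, Cd2, Lck and Cd37 passed that call in all 8 hearts. Ms4a1 passed it in 7, failing in mutant replicate 3. The probes of Cd79a, Cd3d and Cd3g passed in fewer hearts. Cd79a, the partner chain of Cd79b, passed in 0 of 8 hearts, Cd3d in 4 and Cd3g in 2. The 4 hearts with Cd3d were the 4 females, and the 2 with Cd3g were both hearts of array 2. Second probes of Cd2 (10 spots on each array) and Cd37 were dim too, passing in 0 and 3 of 8 hearts. A gene entered the tests through its brightest probe when that probe passed in at least 4 hearts, which kept 7 of the 9 genes. Cd79a and Cd3g therefore have levels here and no test, and Cd3d was kept through its female hearts.

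**Figure D1:**
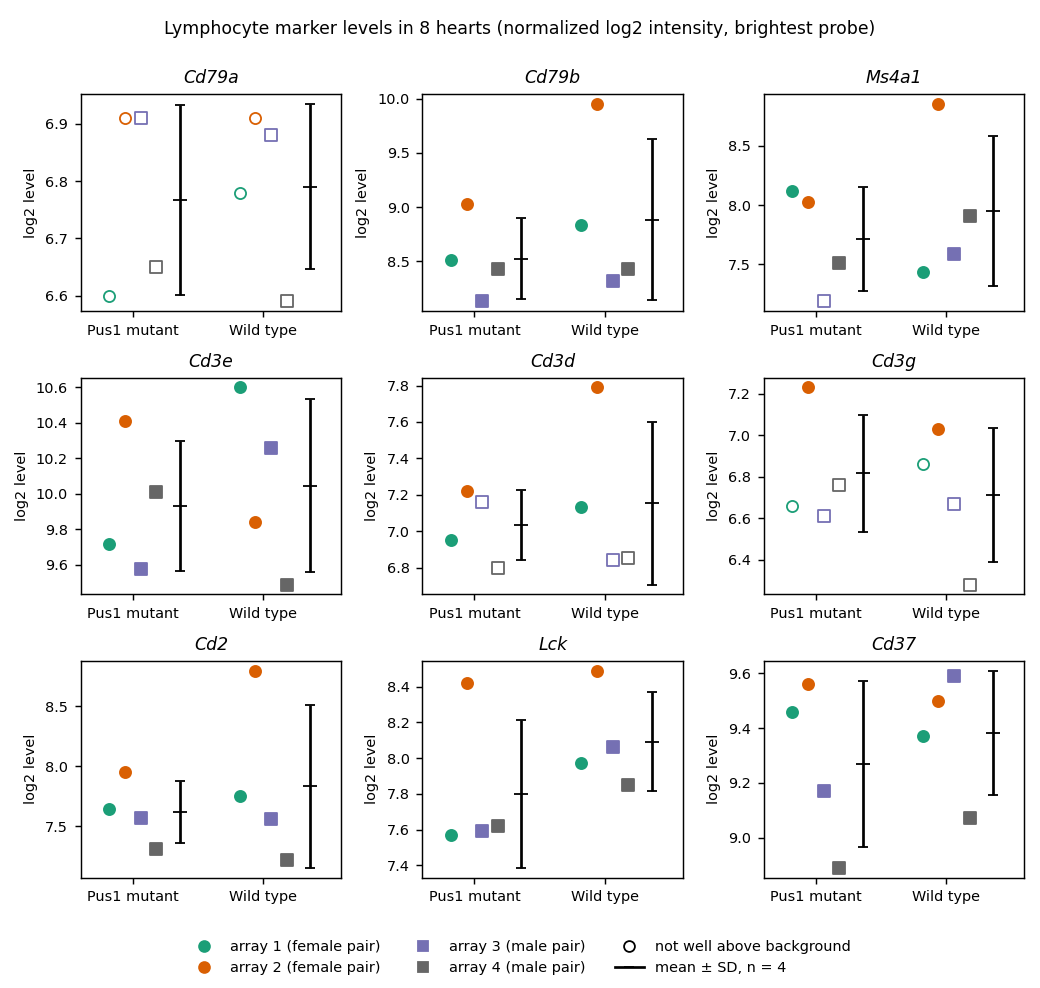
Normalized log2 intensity of the brightest probe of each gene in 4 Pus1 mutant and 4 wild-type hearts, with circles for females, squares for males, colours for the array, open symbols for spots not well above background, and the mean ± SD beside each group. Array 2 (orange) holds the 2 highest hearts for Cd79b, Cd3d, Cd3g, Cd2 and Lck, and Cd79a is open in all 8 hearts.

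In B cells, Cd79b encodes the beta signalling chain of the antigen receptor. Its log2 level was 8.51, 9.03, 8.13 and 8.43 in mutant replicates 1 to 4, against 8.83, 9.95, 8.32 and 8.43 in wild-type replicates 1 to 4. The groups overlapped, and wild-type replicate 2 stood above all other hearts. Within arrays, Cd79b had log2 ratios (mutant over wild type) of -0.32, -0.92, -0.19 and 0.00 (the last just under 0), with an estimate of -0.36 (SE 0.18, 95% interval -0.85 to 0.14, adjusted p = 1 in limma).

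Ms4a1 encodes CD20, a surface protein of mature B cells. Its level was 8.12, 8.03, 7.19 and 7.51 in mutants 1 to 4 and 7.44, 8.85, 7.59 and 7.91 in wild type 1 to 4. Wild-type replicate 2 was again the highest heart and mutant replicate 3 the lowest, with the rest mixed. The ratios were 0.67, -0.82, -0.40 and -0.39, so the female arrays pointed in opposite directions, and the estimate was -0.24 (SE 0.22, interval -0.82 to 0.35, adjusted p = 1). Cd79a, the alpha signalling chain, lay between 6.60 and 6.91 in the mutants and between 6.59 and 6.91 in wild type, all of it dim signal, so no fold is given.

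Among T cell genes, Cd3e, which encodes the epsilon chain that every T cell receptor complex needs, separated the hearts by dye. Its level was 9.72, 10.41, 9.58 and 10.01 in mutants 1 to 4, against 10.60, 9.84, 10.26 and 9.49 in wild type 1 to 4. All 4 hearts labelled with Cy5 (9.49 to 9.84) stood below all 4 labelled with Cy3 (10.01 to 10.60). The mutant over wild-type ratios alternated, at -0.88, 0.57, -0.69 and 0.52. The dye coefficient of the limma fit was -0.66 (SE 0.10, Cy5 over Cy3), below that of all but 1.73% of features, with an adjusted p of 0.366. An unadjusted p under 0.05 for dye was found in 9.9% of features, with Cy5 lower in 6.05%, and an adjusted one in 0%. With the dye in the fit, the genotype estimate was -0.12 (SE 0.10, interval -0.40 to 0.16). Within each dye both females stood above both males.

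**Figure D2:**
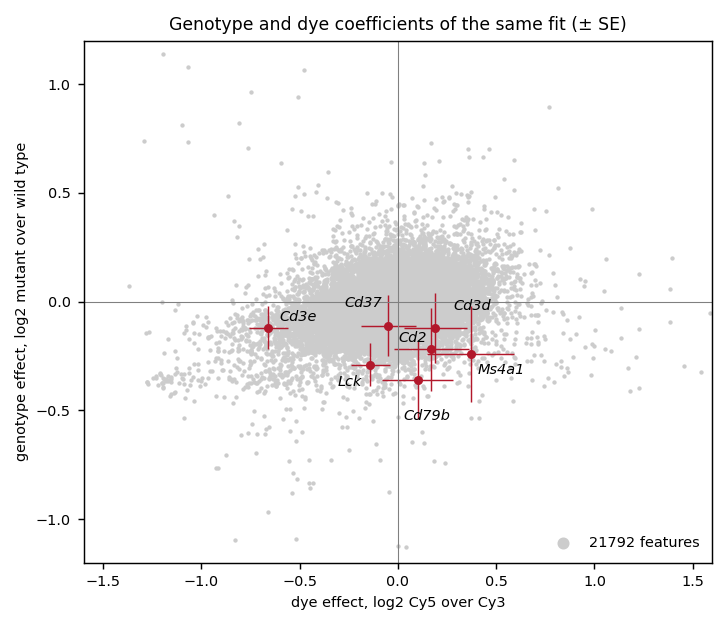
Genotype coefficient (log2 mutant over wild type, vertical) against dye coefficient (log2 Cy5 over Cy3, horizontal) of the same limma fit, with grey points for 21792 features, 10 of which lie outside the axes, and red points with SE bars for the 7 lymphocyte genes. Cd3e lies at -0.66 on the dye axis, and all 7 genes lie below 0 on the genotype axis, between -0.36 and -0.11.

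Cd3d and Cd3g, the delta and gamma chains that pair with epsilon, were measured near background. Cd3d stood at 6.95, 7.22, 7.16 and 6.80 in mutants 1 to 4 and at 7.13, 7.79, 6.84 and 6.85 in wild type 1 to 4, with the males dim in both groups. Its ratios were -0.18, -0.57, 0.32 and -0.06 and the estimate was -0.12 (SE 0.16, interval -0.54 to 0.30). Cd3g was well above background in mutant replicate 2 (7.23) and wild-type replicate 2 (7.03) and dim in the other 6 hearts (6.28 to 6.86), and it carries no test.

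Cd2, an adhesion receptor of T cells and natural killer cells, was at 7.64, 7.95, 7.57 and 7.31 in mutants 1 to 4 and at 7.75, 8.80, 7.56 and 7.22 in wild type 1 to 4. Apart from wild-type replicate 2, the 2 groups ran over the same range. The ratio was -0.85 on array 2 and -0.10, 0.01 and 0.08 on arrays 1, 3 and 4, and the estimate of -0.22 (SE 0.19, interval -0.71 to 0.28) became 0.02 without that array. The dim second probe of Cd2 had ratios of 0.13, -0.29, 0.05 and -0.03.

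Lck, the Src family kinase of T cells, had the most even ratios among the genes tested. Its level was 7.57, 8.42, 7.59 and 7.62 in mutants 1 to 4 and 7.97, 8.49, 8.06 and 7.85 in wild type 1 to 4. On each array the mutant was below its wild-type partner, while mutant replicate 2 stood above 3 of the 4 wild-type hearts. The ratios were -0.40, -0.07, -0.47 and -0.23 (SD 0.18), and the estimate was -0.29 (SE 0.10, interval -0.57 to -0.02, 1.22-fold lower in the mutant). Its unadjusted p was 0.0413 and its adjusted p was 1, so Lck did not pass. Unadjusted p under 0.05 occurred in 1.02% of all features, with the mutant lower in 0.555%.

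Cd37 was at 9.46, 9.56, 9.17 and 8.89 in mutants 1 to 4 and at 9.37, 9.50, 9.59 and 9.07 in wild type 1 to 4. Its ratios were 0.09, 0.06, -0.42 and -0.19, near 0 in females and negative in males, and the estimate was -0.11 (SE 0.14, interval -0.48 to 0.25). The dimmer Cd37 probe gave -0.19, -0.34, 0.02 and 0.36, with at least 1 of the 2 hearts dim on every array.

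**Figure D3:**
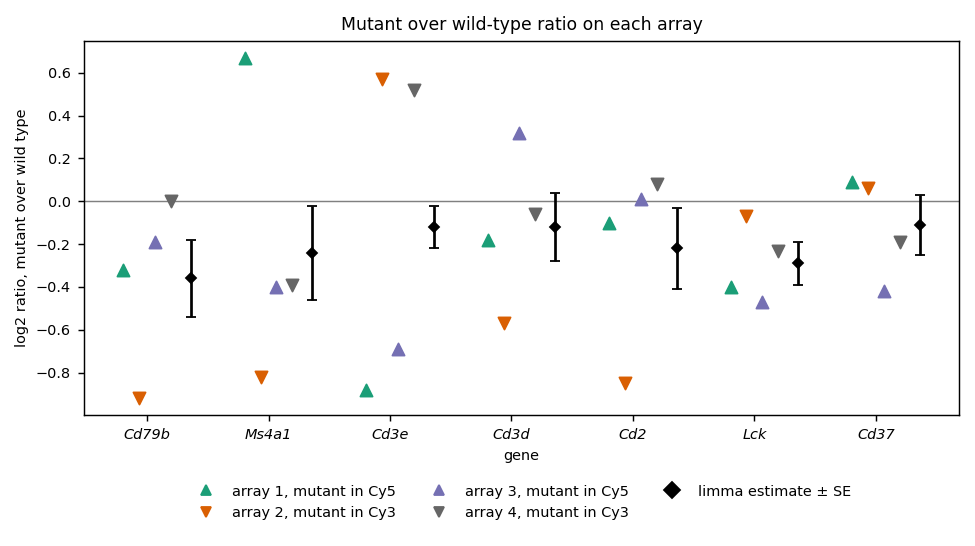
Log2 ratio of mutant over wild type on each array for the 7 genes in the fit, with upward triangles where the mutant was in Cy5, downward triangles where it was in Cy3, and black diamonds for the limma estimate ± SE. Cd3e splits by triangle direction, Cd79b, Ms4a1, Cd3d and Cd2 are lowest on array 2, and Lck is below 0 on all 4 arrays.

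Between genotypes, 0 of the 7 tested genes passed adjusted p 0.05 in limma, as did 0% of the 21792 features (223 of them had an unadjusted p under 0.05), and in that fit Pus1 itself did not pass either (adjusted p = 1). All 7 estimates were below 0, with a median log2 ratio of -0.22, beside a median of -0.01 and a share below 0 of 55.4% over all features. The 7 are not separate observations, since they come from the same 8 hearts. Only Cd79b and Lck were below 0 on every array, which 2.55% of features were. In no gene did the 4 mutants all lie under the 4 wild-type hearts, which 0.358% of features did. Without array 2, 5 of the 7 were below 0 and the median was -0.13. Over all features 55% were below 0 in that setting, with a median of -0.02. With no filter on dim probes, which takes in Cd79a and Cd3g, 8 of 9 were below 0 and the median was -0.12. Over all features the share below 0 was then 53.5% and the median -0.01.

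The hearts of array 2 held the highest levels of several markers. Wild-type replicate 2, a female heart, had the highest level of all 8 hearts for 5 of the 7 genes (Cd79b, Ms4a1, Cd3d, Cd2 and Lck), against 10.2% of all features. For 4 of them (Cd79b, Cd3d, Cd2 and Lck) the heart in second place was mutant replicate 2, from the same array, against 3.63% of all features with their 2 highest hearts there. Cd3d is counted in both, though the filter kept it only through its 4 female hearts, and both hearts of array 2 are female. For Cd3d a high level in them was thus favoured by the filter. On the mean centred scale the B cell markers Cd79b and Ms4a1 averaged 0.26 in mutant replicate 2 and 1.13 in wild-type replicate 2, with the other hearts at -0.60 to 0.04. The 4 T cell markers averaged 0.31 in mutant 2 and 0.54 in wild type 2, with the others at -0.33 to 0.17. These are also 2 of the 3 hearts rich in atrial and fat markers. The third, mutant replicate 4, was at -0.30 for the B cell and -0.26 for the T cell markers. Wild-type replicate 2 was also the highest heart for 5 of 5 platelet, 5 of 11 pan-leukocyte and 5 of 13 antigen receptor signalling genes. It was the highest for 3 of 10 macrophage and monocyte, 0 of 4 neutrophil and 0 of 7 general myocyte genes. The part of atrium, fat or blood in these levels was not tested.

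**Figure D4:**
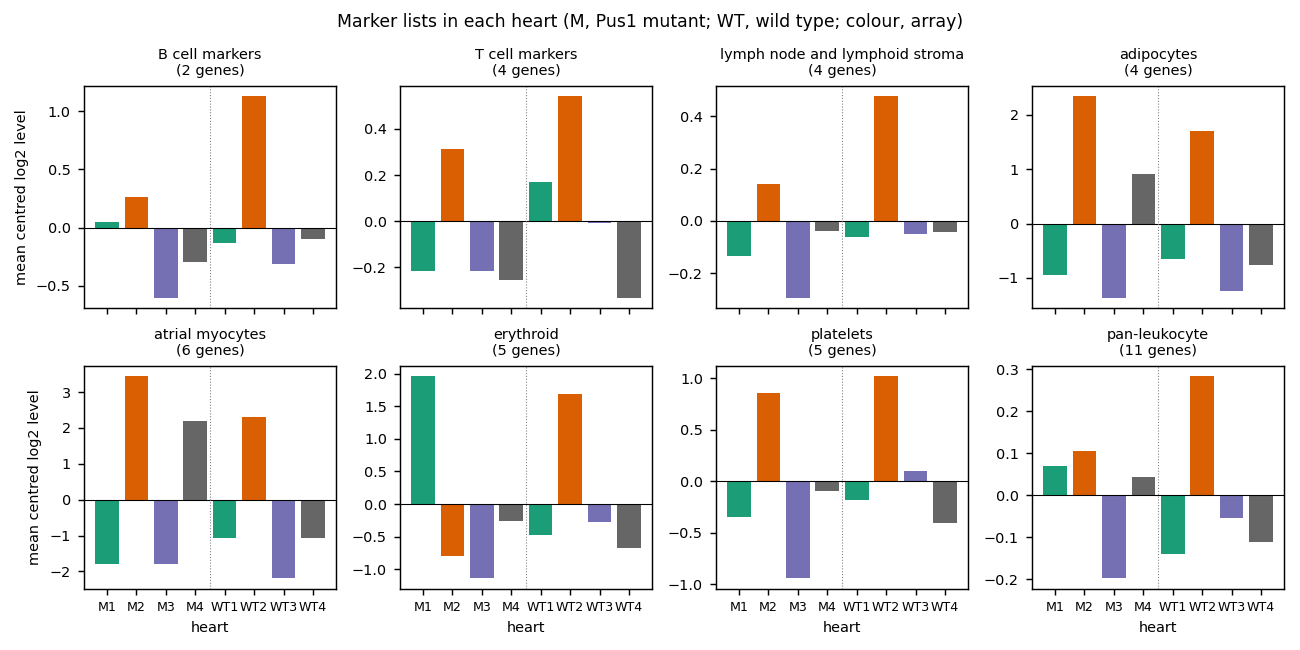
Mean over a marker list of the log2 level minus each gene's own mean, in each of 8 hearts (M1 to M4, Pus1 mutants; WT1 to WT4, wild type), with colours for the array and each panel on its own scale. B cell markers reach 1.13 and T cell markers 0.54 in WT2. There the atrial, adipocyte, erythroid, platelet, lymphoid stroma and pan-leukocyte lists are also above 0. M4 is high in atrial and adipocyte lists with lymphocyte markers below 0.

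Over the 8 hearts the levels of several markers ran together. Pearson's r was 0.95 between Cd3d and Cd2, 0.92 between Cd79b and Cd2 and 0.84 between Cd79b and Ms4a1 (n = 8 hearts, which share 4 arrays). Cd3d was not well above background in any male, so its male levels in these values are dim signal. Over all 21 pairs the median was 0.63, and it was 0.22 over the 6 hearts left without array 2, where Cd79b and Ms4a1 were at 0.26 and Cd3d and Cd2 at 0.68. Cd3e stood out from its complex partner, with r = 0.03 against Cd3d, which became 0.68 when the mean of each dye was taken off.

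Lymphocyte levels were also set out by sex, after the values had been seen and with no test. Cd79b ranged from 8.51 to 9.95 in the 4 females and from 8.13 to 8.43 in the 4 males, and Cd2 from 7.64 to 8.80 in females and from 7.22 to 7.57 in males, with no overlap in either gene. These were 2 of the 7 genes, against 2.18% of all features with every female above every male. Each sex occupied a pair of arrays of its own, so that array and sex cannot be told apart in these levels.

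The mutant over wild-type effect was next compared between sexes within arrays. In the fit with a sex term 0 of the 7 genes passed for the difference, while 9.34% of all features did. The difference in log2 ratio, females minus males, was -0.53 for Cd79b (SE 0.29, adjusted p = 0.466 in limma), with -0.62 in females and -0.09 in males. It was -0.52 for Cd2 (SE 0.29, adjusted p = 0.481), and in the other direction 0.38 for Cd37 and 0.33 for Ms4a1. Cd3d, at -0.51 (SE 0.26, adjusted p = 0.403), was not well above background in any male, so its male ratios compare dim signals. Within females or males alone 0 of the 7 passed, beside 0.00918% of all features in females and 3.38% in males. The fit had 1 residual degree of freedom.

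Other genes of the same cells did not pass between genotypes either. Of 15 further B cell genes 10 were in the fit, 8 with an estimate below 0, a median of -0.07 and 0 passing. Those with the smallest p were Btk, the Bruton kinase of B cell receptor signalling (0.27, SE 0.12), Blnk, its adaptor (-0.19, SE 0.12), and Cr2, the complement receptor CD21 (-0.23, SE 0.15). Wild-type replicate 2 was the highest heart for 5 of the 10. Of 23 further T cell genes 11 were in the fit, 7 below 0, with a median of -0.03 and 0 passing. Cd5, an inhibitory receptor of T cells, was at 0.09 (SE 0.11) and the chemokine receptor gene Ccr7 at -0.13 (SE 0.15), and wild-type replicate 2 was highest for 3 of the 11. Cd8a, Themis, Ubash3a and Ctla4, named for their dim signal, were well above background in 0 of 8 hearts. Genes of antigen receptor signalling, in B cells, T cells or both, had 10 of 13 below 0 (median -0.03) and 0 passing.

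**Figure D5:**
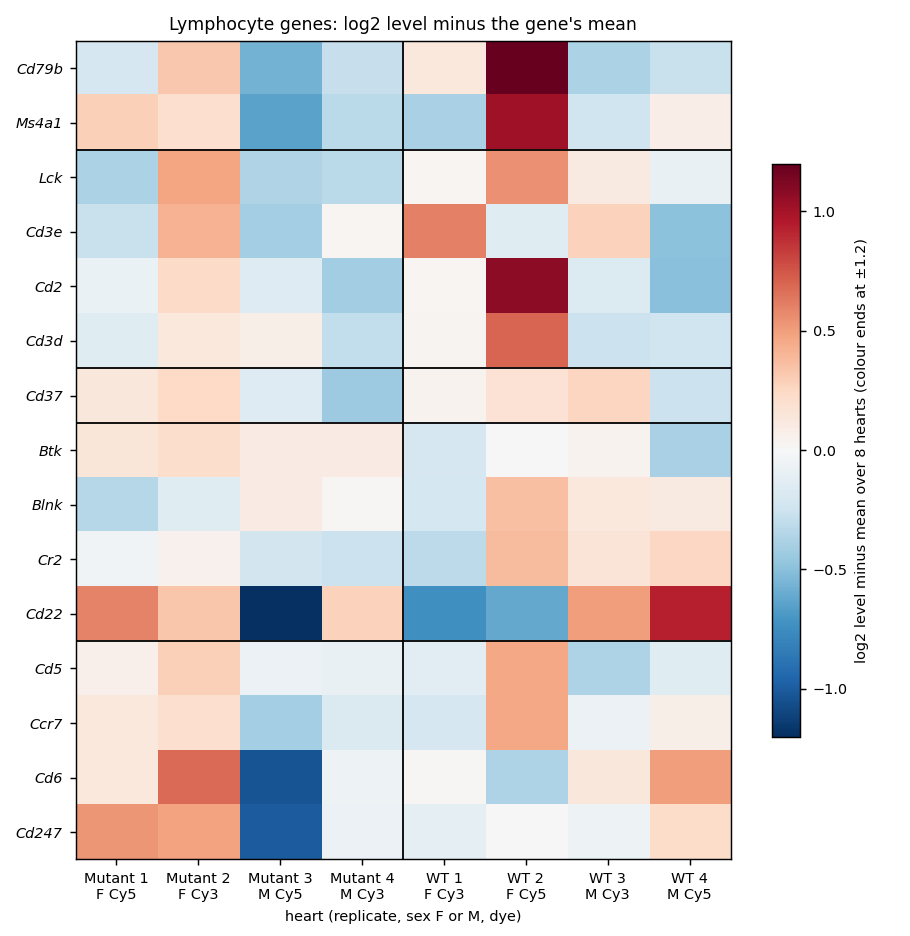
Log2 level minus the gene's mean over 8 hearts (colour, ends at ±1.2) for the 7 lymphocyte markers and, under the lines, the other B cell and T cell genes named with values in the text, with columns for Pus1 mutants 1 to 4 and wild types 1 to 4 and their sex and dye. WT 2 is the reddest column for Cd79b, Ms4a1, Cd2 and Cd3d, whereas Cd22, Cd6 and Cd247 are bluest in Mutant 3.

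Of these 21 genes 3 passed for the difference between sexes in the mutant over wild-type ratio, all with the higher ratio in females, as did 9.21% of all features. This is a difference in ratios and not in levels. They were Cd22, an inhibitory receptor of B cells (2.35 in females minus males, adjusted p = 0.00434 in limma), Cd6 (1.45, adjusted p = 0.0079) and Cd247, the zeta chain of the T cell receptor complex (1.17, adjusted p = 0.0332). Cd22 had ratios of 1.33, 0.94, -1.77 and -0.66 on arrays 1 to 4. Of the same cell type, Cd79b was below 0 on every array, and Ms4a1 had the sign of Cd22 on every array but array 2. None of Cd22, Cd6 and Cd247 passed in limma with median centring, without the dye term, or from the processed signals or matrix values (adjusted p from 0.0712 to 0.209). Cd6 was also lost when its probes were averaged (0.59, adjusted p = 0.259) and Cd247 without background correction (adjusted p = 0.0523), and Cd247 has no value with the filter on all 8 samples.

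Lists of other cell types that a piece of heart may hold had 0 members passing between genotypes. Natural killer and cytotoxic genes had 4 of 4 measured members at or below 0 (median -0.09), and 5 of the 7 that were too dim were at 0 of 8 hearts. Plasma cell genes had 3 of 4 below 0 (median -0.06), and Jchain, the joining chain of secreted immunoglobulin, was at -1.33 on array 2 and 0.01, 0.05 and -0.05 on arrays 1, 3 and 4. Lymph node and lymphoid stroma genes had 4 of 4 below 0 (median -0.13), with centred means of -0.29 to 0.14 in mutants and -0.06 to 0.48 in wild type. Rag1 and Rag2, which mark developing lymphocytes, were at 0 of 8 hearts, and the 2 other early thymocyte genes measured had a median of 0.04. Pan-leukocyte genes had 5 of 11 below 0 (median 0.03), macrophage and monocyte genes 5 of 10 (0.03), neutrophil genes 2 of 4 (0.14) and platelet genes 4 of 5 (-0.15). MHC class II genes, carried by B cells and by myeloid cells, had 7 of 8 below 0 (median -0.25), with Cd74 at -0.32 (SE 0.17) and wild-type replicate 2 the highest heart for 5 of 8. Erythroid genes had a median of -0.27, adipocyte genes of 0.39, atrial genes of 1.05 and general myocyte genes of 0.00.

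The genes whose levels over the 8 hearts were most like the mean of the B cell markers were Fmod (r = 0.956), Ms4a4b (0.953), Txndc8 (0.944), Limd2 (0.940), Ntrk2 (0.938) and Jchain (0.936). For the T cell markers they were Hacd4 (0.982), Mzb1 (0.974), Rgs18 (0.965), Psd (0.963), Emb (0.961) and Nsd3 (0.961). These are the closest of 13692 named genes less the markers over n = 8 hearts that share arrays, and such values carry no test.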

How the data were processed

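RNA of 8 hearts was measured on 4 two-colour Agilent arrays, scanned on 1 slide and read by Feature Extraction 10.7.3.1 with a grid of mouse build mm9, per the file headers. The deposited intensity values were median pixel brightness of spot and background, uncorrected. The scanner's processed intensity values (dye-normalized after background subtraction, per the file headers) and a matrix of log2 values deposited by the authors, whose normalization is not given in the sources used here, were alternatives. The median of a matrix row over the samples was within 0.001 of 0 in 100% of rows, its column medians ran from -0.02 to 0.06, and its within-array differences correlated with log2 ratios of processed signals at 0.991 to 0.998, which settled scale and direction.

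Background was corrected with normexp (offset 50) and ratios by loess in limma 3.58.1 under R 4.3.3, 95% intervals included. Probes well above background in at least 4 of 8 samples (28528 of 55681) gave 21792 features, accessions being named through RefSeq (GRCm38.p6) and a gene taking its brightest probe. Mutant over wild-type ratios were fitted with a dye term (2 residual degrees of freedom), 2-sided, and p-values adjusted by Benjamini-Hochberg over every feature (threshold 0.05). The SE leaves out the part that follows the dye and holds any difference between sexes. Levels are separate channels after Aquantile normalization and still hold the dye. A feature's level is not compared between probes, and the number of arrays limits the precision. The fits were tested on simulated data with the same spread in every feature, which differs from these data. The array pairs the samples by the labels. Deviations of paired hearts from their genotype means correlated at -0.49, -0.11, -0.38 and 0.51 over features. The named genes were all 9 markers, up to 3 genes of smallest p in each other list, and the 6 most alike; a few of these are not reported here. Markers and lists were chosen with earlier results of these data known. Alternatives were the signal source, background, normalization, filter, probe rule, dye, sex and block terms, and leaving out each array.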

Additional observations from a re-analysis of the deposited data

Results flagged for a closer look

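Lck in mutant replicate 2 stood at 8.42 on the log2 scale, far from the other 3 mutants at 7.57 to 7.62. It was the 1 sample so far from its group among 14 groups of 4 examined, and chance flags about 1 in 20. Its array partner, wild-type replicate 2, was at 8.49.

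For Cd2 both female ratios were below 0 (-0.10 and -0.85) and both male ratios just above 0 (0.01 and 0.08). The difference, females minus males, was -0.52 (SE 0.29) and did not pass in limma (adjusted p = 0.481). For Cd37 both female ratios were above 0 (0.09 and 0.06) and both male ratios below 0 (-0.42 and -0.19). The difference was 0.38 (SE 0.26, adjusted p = 0.641 in limma). The share of all features whose ratios split by sex in this way was not counted, so these splits are description and not a test.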

How the results depend on the processing

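No marker passed adjusted p 0.05 in limma under any alternative run, between genotypes or for the difference between sexes. The genotype estimates of Cd79b (-0.59 to -0.13) and Lck (-0.44 to -0.25) stayed below 0 under all 16. Their precision was less steady, with an SE of 0.14 to 0.37 for Cd79b and 0.10 to 0.23 for Lck. In limma the unadjusted p of Lck ran from 0.0287 with no filter on dim probes to 0.237 on separate channels with no replicate block. With median centring the median of all features was 0.08, against -0.01 with loess, and Cd3e (0.02) and Cd37 (0.01) turned positive there, still below that median. Leaving out each array gave -0.25 to 0.01 for Cd3d (0.00 without replicate 1 and 0.01 without replicate 2), -0.45 to 0.02 for Cd2 (0.02 without replicate 2), and -0.50 to 0.03 for Ms4a1 and -0.24 to 0.01 for Cd37 (0.03 and 0.01 without replicate 3). Ms4a1 and Cd3d have no value with the filter on all 8 samples. The difference between sexes for Lck turned to -0.06 with matrix values and -0.03 with median centring. With 1 array left out, a value with no test, that difference ran from -0.92 to -0.14 for Cd79b, -0.42 to 1.08 for Ms4a1, -0.93 to -0.11 for Cd2 and 0.25 to 0.51 for Cd37. It was -1.49 and -1.73 for Cd3d, -1.09 and -1.22 for Cd2, -0.89 and -0.89 for Cd79b and 0.70 and 0.56 for Ms4a1 with processed signals and matrix values, and 0.06 for Cd37 and -0.43 for Cd3e with median centring, none passing.

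In the genotype fit 0 features passed, and 1 (Pus1) did with median centring, with a sex by genotype term, on separate channels with no replicate block, and with each array a random block. Under both treatments of the block no marker passed, as in the main fit, and the SE of every tested marker was larger. It went from 0.18 to 0.37 for Cd79b and from 0.10 to 0.23 for Lck. The 2035 features passing for the difference between sexes became 1244 with the filter on all 8 samples and 0 with median centring, processed signals, matrix values or no dye term. In females the 2 features became 894 with scale normalization, 419 with the filter on all 8 samples, and 0 with median centring, processed signals, matrix values, no background correction, the mean over probes or no dye term. In males the 737 became 1417 with scale normalization, 2 with the mean over probes, and 0 with median centring, processed signals, matrix values, no background correction or no dye term. The cause was not tested. Cd79a and Cd3g were too dim for a test.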
